A study of Mus musculus with 18 samples.

Results

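The aminoacyl-tRNA synthetase genes encode the enzymes that join each amino acid to its tRNA. Here they are the genes of the array whose symbol is a single letter followed by ars, with or without a final 1 or 2, together with Eprs, Farsa and Farsb, and with a probe that gave a value for at least 14 of 18 lymphomas. There were 35 such genes among 18147 measured genes, 19 taken as cytosolic and 16 as mitochondrial because their symbol ends in 2. The data are 2-colour array measurements of RNA from 18 lymphomas of triple knock-out mice (Atm-/-, mTerc-/-, p53-/-), each set against 1 common reference. The reference RNA came from the thymus of healthy p53 heterozygotes at 3 weeks of age. Dye-swapped hybridisations were made for each lymphoma, and the table gives 1 value per probe.

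All lymphomas carry the same 3 deletions and the reference carries none of them in homozygous form, so effects of genotype, tumour and age cannot be told apart. The labels do not name the ages of the mice with lymphoma, nor whether the 18 lymphomas came from separate mice. The p-values below therefore measure the spread between these samples. DNA is named in the title of the series, but the sample labels give total RNA and an RNA extraction, so the values were treated as RNA. The values are log2 ratios, converted from deposited ratios that were taken to be log10. The direction is not stated by the submitters, and lymphoma over thymus is called likely because the deleted genes were then low. Atm lay at -0.65 ± 0.53 (SD, n = 18) and below the reference in 17 of 18 lymphomas, and Terc, the telomerase RNA, lay at -1.47 ± 0.58 and below it in all 18. With the other direction every sign given here turns.

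In animal cells, cytosolic synthetases feed the ribosomes that translate nuclear messages, and a separate set of nuclear-encoded synthetases serves translation inside mitochondria. Gars and Kars each supply both compartments from 1 gene, Eprs charges glutamate and proline tRNAs with 1 polypeptide, and Farsa and Farsb are the subunits of phenylalanyl-tRNA synthetase. When amino acids run short, uncharged tRNA activates the kinase GCN2 (Eif2ak4), translation of the transcription factor Atf4 rises, and Atf4 with its C/EBP partners activates genes such as Asns, the asparagine synthetase, and several cytosolic synthetase genes. The composite site of Atf4 and C/EBP has the core TGATGNAA.

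The promoters of the 5 synthetase genes that held this core, all 5 cytosolic, are shown. All 19 cytosolic genes were called higher in the lymphomas, so the rise of these 5 does not set them apart. The windows run from 250 bases before to 50 bases after the annotated start, on the strand of the gene, and are credited to RefSeq on the mouse build GRCm38.p6. They lie at chr4:129189653-129189952 (plus strand, Yars), chr6:55037751-55038050 (plus strand, Gars), chr8:111033592-111033891 (plus strand, Aars), chr15:11399609-11399908 (minus strand, Tars) and chr13:49681880-49682179 (plus strand, Iars). Capitals mark the core read on either strand.
Yars: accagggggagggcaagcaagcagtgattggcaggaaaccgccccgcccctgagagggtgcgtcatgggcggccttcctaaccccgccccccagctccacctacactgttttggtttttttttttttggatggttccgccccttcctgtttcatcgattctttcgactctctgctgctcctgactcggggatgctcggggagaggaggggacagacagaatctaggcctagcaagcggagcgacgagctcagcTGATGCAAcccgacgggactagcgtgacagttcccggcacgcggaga
Gars: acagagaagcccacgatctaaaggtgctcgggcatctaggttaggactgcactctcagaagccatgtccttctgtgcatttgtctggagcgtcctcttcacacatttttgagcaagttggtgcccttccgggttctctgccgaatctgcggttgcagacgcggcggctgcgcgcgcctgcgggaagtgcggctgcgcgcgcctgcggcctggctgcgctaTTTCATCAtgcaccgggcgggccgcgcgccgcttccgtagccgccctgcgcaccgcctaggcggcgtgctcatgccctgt
Aars: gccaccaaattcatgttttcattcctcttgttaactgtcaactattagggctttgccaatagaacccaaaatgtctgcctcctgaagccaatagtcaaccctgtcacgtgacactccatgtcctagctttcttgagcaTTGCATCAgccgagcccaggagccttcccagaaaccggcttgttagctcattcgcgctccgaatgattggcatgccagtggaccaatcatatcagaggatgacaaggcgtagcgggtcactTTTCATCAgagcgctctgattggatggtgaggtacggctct
Tars: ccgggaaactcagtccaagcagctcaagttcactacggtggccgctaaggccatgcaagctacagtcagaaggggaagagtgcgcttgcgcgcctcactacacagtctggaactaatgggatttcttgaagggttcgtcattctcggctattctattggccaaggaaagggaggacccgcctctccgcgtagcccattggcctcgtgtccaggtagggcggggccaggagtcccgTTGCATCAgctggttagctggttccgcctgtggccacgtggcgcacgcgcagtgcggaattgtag
Iars: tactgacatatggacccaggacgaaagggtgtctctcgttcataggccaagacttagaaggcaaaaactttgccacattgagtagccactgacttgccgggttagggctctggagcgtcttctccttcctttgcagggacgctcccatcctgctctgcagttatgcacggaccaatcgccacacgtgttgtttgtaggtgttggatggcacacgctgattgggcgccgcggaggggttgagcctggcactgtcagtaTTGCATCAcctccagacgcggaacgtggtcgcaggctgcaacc

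The core TGATGNAA, searched on both strands, was present in 5 of the 26 synthetase genes with a window in the RefSeq table. All 5 were among the 12 cytosolic genes with a window, and 0 were among the 14 mitochondrial genes with one. Of all 32851 promoter windows, 3.97% held it. In Yars the match was TGATGCAA at 4 to 11 bases after the start. In Aars there were 2 matches, TTGCATCA from -112 to -105 and TTTCATCA from 10 to 17. Gars had TTTCATCA from -30 to -23, Tars had TTGCATCA from -15 to -8 and Iars had TTGCATCA from 8 to 15. These are matches of letters and not measured binding sites.

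The other motifs searched in the same windows were the E-box CACGTG, bound by Myc and its partners, and the cyclic AMP response element TGACGTCA. CACGTG, which reads the same on both strands, was present in 5 synthetase genes (Aars, Ears2, Farsb, Iars and Tars) and in 7.15% of all windows. TGACGTCA, also its own reverse complement, was present in 0 of the 26 genes and in 1.79% of all windows. No window was matched for Cars, Hars, Lars, Nars, Rars, Vars, Wars, Hars2 and Pars2. Among the 12 cytosolic genes with a window, the mean log2 ratio ran from 0.71 in Iars to 2.09 in Yars where the core was present. It ran from 0.19 in Qars to 1.44 in Mars1 where it was absent, so the ranges overlapped.

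In these bulk samples, fewer cells of a type and less RNA per cell cannot be told apart, and a ratio can also move because the thymus holds other cells. Of the thymic epithelium markers, 8 of 8 were lower in the lymphomas, with a mean over the list between -5.04 and 0.62 per lymphoma. Of the T lineage markers, 0 of 5 were higher and 3 were lower, namely Thy1 at -1.32, Cd2 at -0.99 and the T cell receptor chain gene Cd3g at -0.78. The chain genes Cd3e and Cd3d lay at 0.21 and -0.19 and did not pass. Of the B cell markers, Ms4a1 lay at -2.73, Cd79b at -1.99, Cd79a at 0.11 and Pax5 at 0.40. Markers of neutrophils (6 of 6), adipocytes (4 of 4) and erythroid cells (2 of 2) were lower too, with list medians of -4.16, -3.37 and -2.63. Of 4 endothelial markers 1 was lower, and of 5 fibroblast markers 1 was higher and 2 were lower. The macrophage markers ran in their mean from -4.20 to 2.76 and separated lymphomas 1, 2, 3, 5, 15, 17 and 18, at -4.20 to -2.88 and called marker-poor below, from the other 11, at -0.14 to 2.76. The same 7 were set apart by the adipocyte markers, at -5.67 to -4.51 against -3.75 to 0.66, and by the erythroid markers, at -4.48 to -3.25 against -2.82 to 0.45. Lymphomas 7, 12 and 14 stood apart from the rest, with median correlations to the other lymphomas over all genes of 0.10, 0.31 and 0.25 against 0.59 to 0.66 elsewhere.

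The first question was how far each synthetase gene differed between lymphoma and thymus. All 19 cytosolic genes were higher in the lymphomas, while 11 of 16 mitochondrial genes were higher, 1 was lower and 4 did not pass (limma, Benjamini-Hochberg adjusted p under 0.05 over all genes). Among all genes, 29.9% were called higher and 27.9% lower. The median of the mean log2 ratios was 1.10 for the cytosolic genes, 0.58 for the mitochondrial genes and 0.05 for all genes. A mean at least 2-fold higher that also passed was found for 10 cytosolic and 2 mitochondrial genes, against 4.3% of all genes. A ratio above the reference in 18 of 18 lymphomas was found for 11 cytosolic genes and for the mitochondrial Pars2 and Tars2, against 4.61% of all genes. Without lymphomas 7, 12 and 14, 19 cytosolic and 11 mitochondrial genes were called higher, and without the 7 marker-poor lymphomas 17 and 9 were. The shares of all genes called in those smaller fits were not computed, so these counts have no share to stand beside. The part of the low thymic epithelium, neutrophil, adipocyte and erythroid markers in these ratios was not tested.

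**Figure D1:**
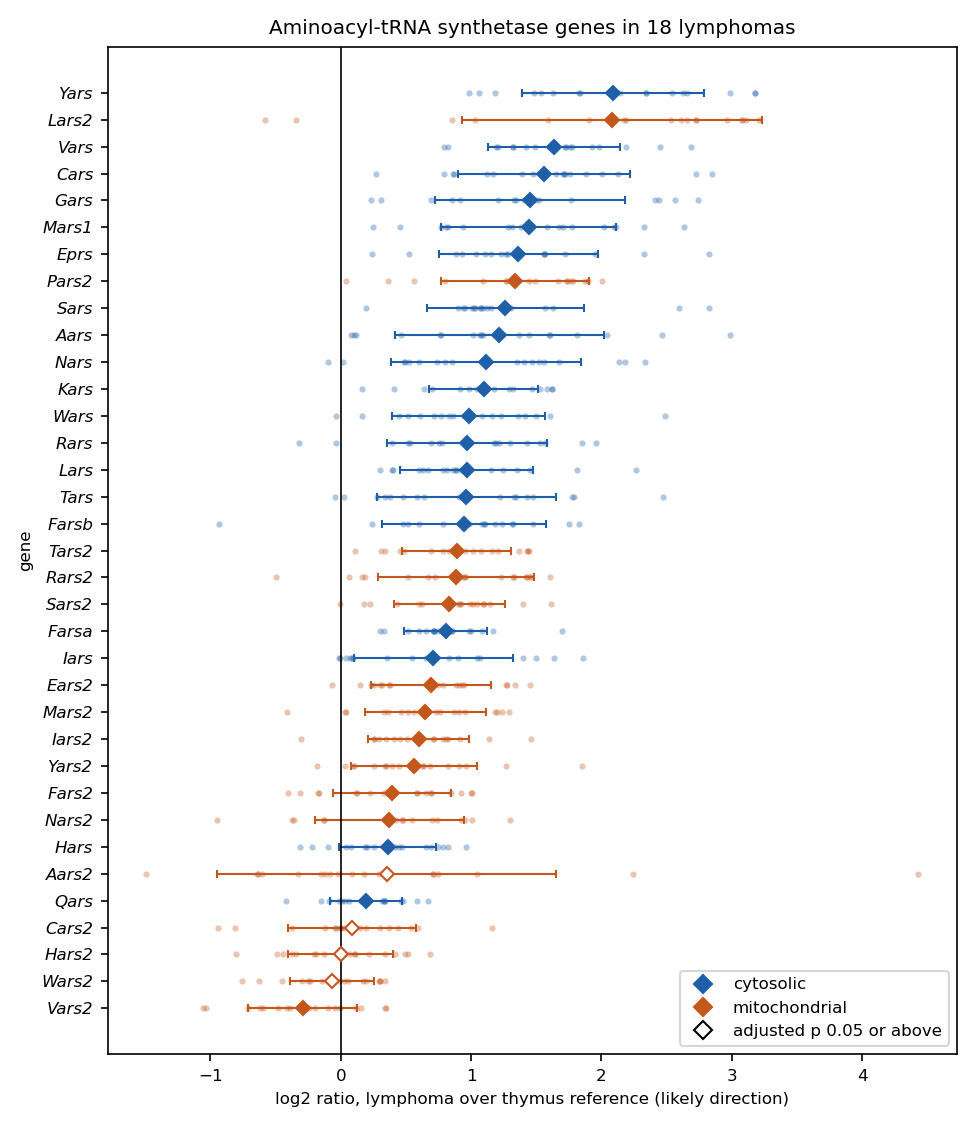
Log2 ratio of lymphoma over thymus for each of the 35 synthetase genes. Small points are the 18 lymphomas, diamonds and bars are the mean and SD, blue marks cytosolic and orange mitochondrial genes, and open diamonds did not pass the test. Yars and Lars2 stand at the top with means of 2.09 and 2.08, and Vars2 at the bottom with -0.29.

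Yars, the cytosolic tyrosyl-tRNA synthetase, had the highest mean of the family. Its log2 ratio had a lowest value of 0.98, a median of 2.11 and a highest value of 3.18. Every lymphoma was above the reference, with 15, 3 and 5 the highest and 12 and 9 the lowest. The mean was 2.09 ± 0.70 (SD, n = 18), a 4.25-fold difference (limma adjusted p = 3.9e-09).

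Vars, which charges valine tRNA, ran from 0.79 through a median of 1.66 to 2.69, above the reference in all 18 lymphomas. Lymphomas 8 and 9 were the highest and 12 and 7 the lowest. Its mean was 1.63 ± 0.51 (adjusted p = 2.5e-09 by limma), with the means of its 2 probes at 1.56 and 1.70. Cars, the cysteinyl-tRNA synthetase, ran from 0.27 in lymphoma 12 through 1.68 to 2.85 in lymphoma 15, with a mean of 1.56 ± 0.66. Gars, the glycyl-tRNA synthetase of cytosol and mitochondria, ran from 0.23 through 1.42 to 2.74. Lymphomas 3, 5, 15 and 13 formed its upper end, at 2.41 or above, and 12 and 7 its lower end, at 0.31 or below. The mean of Gars was 1.45 ± 0.73 (adjusted p = 4.3e-07 by limma).

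Several of the cytosolic synthetases are held together with scaffold proteins in the multisynthetase complex. Of its synthetases, 7 were measured and all 7 were higher, with a median mean of 0.97 against 1.16 for the 12 cytosolic genes outside it. Mars1, which charges both initiator and elongator methionine tRNA, ran from 0.25 in lymphoma 7 through 1.48 to 2.64 in lymphoma 3, mean 1.44 ± 0.67. Eprs ran from 0.24 in lymphoma 7 through 1.28 to 2.82 in lymphoma 5, mean 1.36 ± 0.61. Kars, the lysyl-tRNA synthetase, ran from 0.16 in lymphoma 7 through 1.10 to 1.62 in lymphoma 3, mean 1.10 ± 0.42. All 3 were above the reference in every lymphoma, and lymphomas 7 and 12 were the lowest for each. Rars, Lars and Iars, which charge arginine, leucine and isoleucine tRNAs, had means of 0.97, 0.97 and 0.71. The probe means of Iars were spread, at 0.14, 0.80 and 1.20.

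Qars, the glutaminyl-tRNA synthetase of the same complex, had the smallest mean of the cytosolic genes. It ran from -0.42 in lymphoma 14 through 0.18 to 0.67 in lymphoma 3, above the reference in 14 lymphomas. Its mean of 0.19 ± 0.28 passed with an adjusted p of 0.034 by limma. The means of its 3 probes were -0.44, 0.36 and 0.66, so the probes disagreed in sign. With 1 probe per gene the value was -0.44, and the call was also lost without any 1 of 8 lymphomas.

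The scaffold of the complex consists of Aimp1, Aimp2 and Eef1e1. Aimp2 was higher at 1.18 ± 0.44 and Aimp1 at 0.29 ± 0.27, while Eef1e1 was lower at -0.26 ± 0.42. The 3 scaffold genes thus passed with different signs (limma adjusted p = 2.8e-08, 0.0028 and 0.034).

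Among the other cytosolic genes, Sars (seryl), Aars (alanyl) and Nars (asparaginyl) had means of 1.26, 1.22 and 1.11. Aars had the largest SD of the cytosolic genes and ran from 0.08 in lymphoma 13 through 1.09 to 2.99 in lymphoma 5, mean 1.22 ± 0.80. The values of lymphomas 13, 12 and 7 were near the reference and those of 5, 3 and 15 were 2.04 or above. The 5 probes of Aars had means from 0.34 to 2.11, all above 0. Wars, the tryptophanyl-tRNA synthetase and an interferon-induced gene, ran from -0.04 in lymphoma 4 through 0.90 to 2.49 in lymphoma 2, mean 0.98 ± 0.59. Tars, Farsb and Farsa had means of 0.96, 0.95 and 0.80, and Hars, which charges histidine tRNA, had a mean of 0.36 ± 0.37. The probe means of Hars were 0.15 and 0.57. Without the 7 marker-poor lymphomas Hars lay at 0.31 and did not pass (adjusted p = 0.060 by limma).

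Of the mitochondrial genes, Lars2, which charges leucine tRNA in mitochondria, had the highest mean and the second largest SD of all 35. Its log2 ratio ran from -0.58 through a median of 2.57 to 3.21. Lymphomas 17 and 13 were below the reference at -0.58 and -0.34, lymphomas 12 and 11 lay at 0.85 and 1.03, and the other 14 lay between 1.59 and 3.21. The mean was 2.08 ± 1.15, a 4.24-fold difference (limma adjusted p = 1.1e-06), from 1 probe. Pars2, the mitochondrial prolyl-tRNA synthetase, ran from 0.04 in lymphoma 14 through 1.47 to 2.0 in lymphoma 15, mean 1.34 ± 0.57.

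The mitochondrial Tars2, Rars2 and Sars2 had means of 0.89, 0.89 and 0.83, and Ears2, Mars2, Iars2 and Yars2 had means from 0.56 to 0.69. Ears2 charges glutamate onto mitochondrial tRNA, including the tRNA for glutamine, which the GatCAB amidotransferase then converts. The GatCAB subunit genes Gatb, Qrsl1 and Gatc were higher too, at 0.58 ± 0.22, 0.79 ± 0.44 and 0.47 ± 0.41. Fars2 and Nars2 passed with means of 0.39 and 0.37. Both lost the call without the 7 marker-poor lymphomas, at 0.25 and 0.40 (adjusted p = 0.13 and 0.12 by limma). With 1 probe per gene Nars2 lay at 0.14 and did not pass (adjusted p = 0.57 by limma).

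The mitochondrial valyl gene Vars2 was the 1 member called lower. It ran from -1.06 in lymphoma 14 through -0.28 to 0.34 in lymphoma 11, below the reference in 14 of 18. Its mean was -0.29 ± 0.42 (limma adjusted p = 0.018), with probe means of -0.62 and 0.03. Without the 7 marker-poor lymphomas the mean was -0.19 and the adjusted p was 0.29. Cars2, Hars2 and Wars2, for cysteine, histidine and tryptophan, lay at 0.08 ± 0.49, -0.00 ± 0.40 and -0.07 ± 0.32 and did not pass (the lowest adjusted p by limma was 0.50, for Wars2). Their lowest, median and highest values were -0.94, 0.06 and 1.16 for Cars2, -0.80, 0.04 and 0.68 for Hars2, and -0.76, -0.03 and 0.34 for Wars2. In each of the 3, the lymphomas fell on both sides of the reference. Probe means lay on both sides of 0 for Cars2 and Wars2.

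Aars2, the mitochondrial alanyl-tRNA synthetase, varied more than any other member. It ran from -1.49 in lymphoma 14 through 0.03 to 4.43 in lymphoma 9. Lymphoma 13 was next at 2.24, and the other 16 lay between -1.49 and 1.04. The mean of 0.35 ± 1.30 did not pass (limma adjusted p = 0.30), with 9 lymphomas above and 9 below the reference. Without lymphoma 9 the mean was 0.11.

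**Figure D2:**
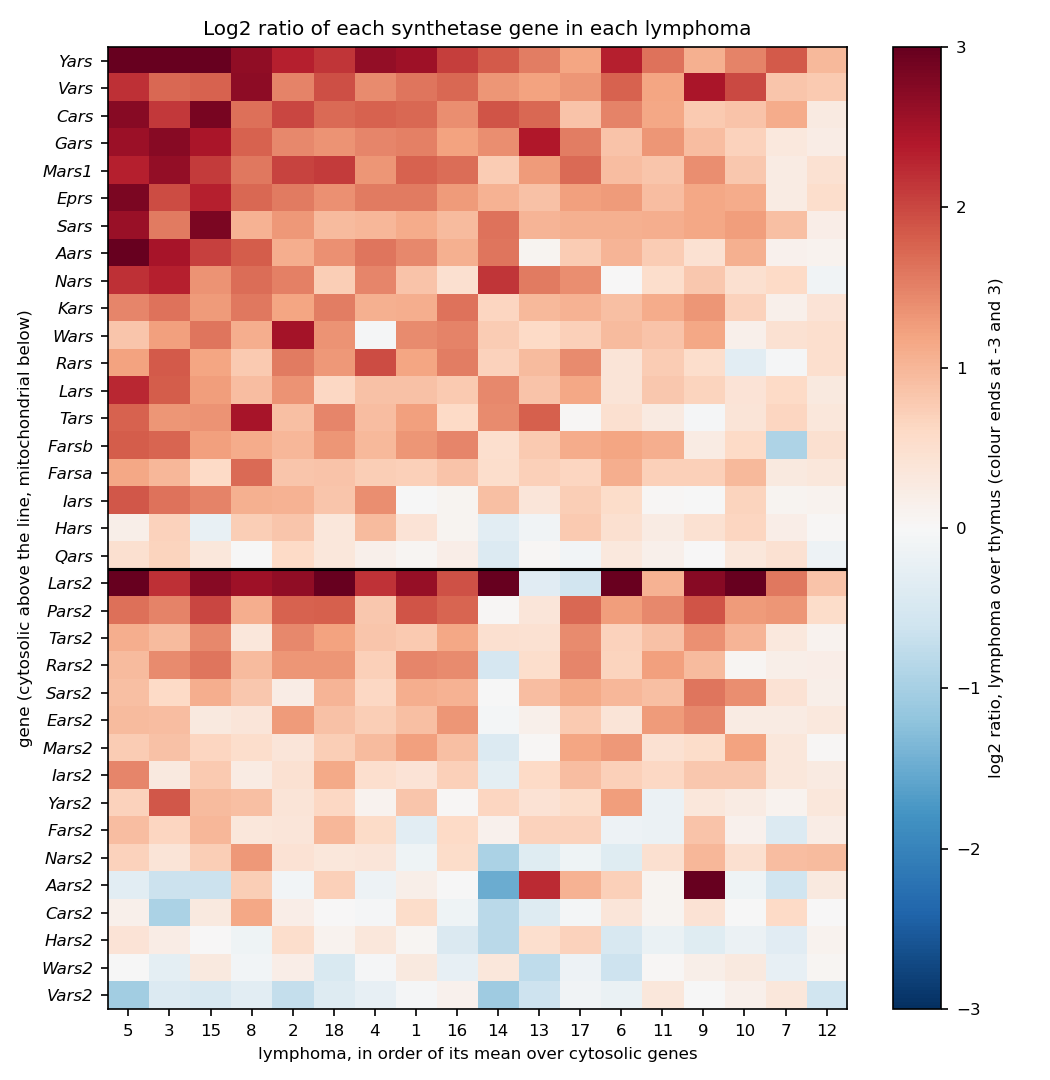
Log2 ratio of every synthetase gene (rows, cytosolic above the line) in every lymphoma (columns, ordered by the mean over cytosolic genes). The colour scale ends at -3 and 3. Lymphomas 5, 3 and 15 are dark across most cytosolic rows, lymphomas 7 and 12 are pale, and Lars2 and Aars2 have single columns that break with their row.

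The synthetases fall into class I and class II, which differ in the fold of the catalytic domain. Of 19 class I genes, 16 were higher and 1 was lower, and of 16 class II genes, 14 were higher and 0 were lower. The medians of their means were 0.89 and 0.92. Most members of each class were thus higher, and the class medians differed by less than those of the compartments, 1.10 and 0.58.

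The next question was how the cytosolic and the mitochondrial enzyme for the same amino acid compared. There were 17 such pairs, with Fars2 set against both Farsa and Farsb, and Eprs against both Ears2 and Pars2. The pairs are therefore not all separate. The cytosolic gene had the higher mean log2 ratio in 16 of them. This is a difference of ratios and not of transcript levels, and no p is given because the members were chosen with results known. Vars exceeded Vars2 in 18 of 18 lymphomas, by 1.92 ± 0.68 on average and between 0.48 and 3.23. Yars exceeded Yars2 by 1.53 ± 0.57 and Cars exceeded Cars2 by 1.48 ± 0.86, both in 18 of 18. Wars exceeded Wars2 by 1.05 ± 0.63 in 17 of 18.

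At the other end, Lars minus Lars2 was -1.12 ± 1.18, running from -2.68 to 1.73. Lars was above Lars2 in 2 of 18 lymphomas, the 2 in which Lars2 was below the reference. Means differed by 0.11 or less for Iars with Iars2, Rars with Rars2, Tars with Tars2 and Eprs with Pars2, with the cytosolic gene above in 7 to 10 of 18 lymphomas. Those 4 differences were smaller than their SD of 0.51 to 0.89. The pairs of Aars, Nars, Farsb, Sars, Farsa and Hars also had differences below their SD. These differences were 0.36 to 0.86, with SD of 0.43 to 1.81. Hars and Hars2 lie on the same chromosome and had a difference of 0.36 ± 0.43. Vars and Vars2, the pair with the largest difference, also share a chromosome.

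**Figure D3:**
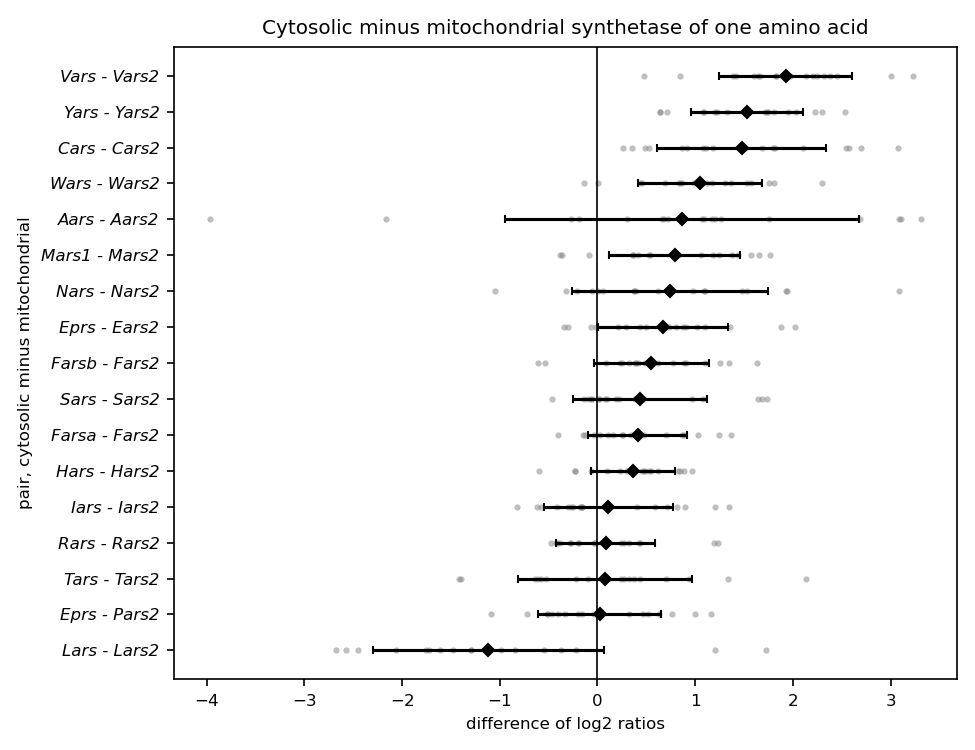
Difference of log2 ratios, cytosolic minus mitochondrial gene, for 17 pairs of synthetases that charge the same amino acid. Fars2 and Eprs each appear in more than 1 pair. Grey points are the 18 lymphomas, and diamonds and bars are the mean and SD. The pairs of Vars, Yars and Cars lie wholly above 0, and the pair of Lars has its mean at -1.12.

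Averaged over the genes of each compartment, the cytosolic mean was above the mitochondrial mean in 17 of 18 lymphomas. The difference was 0.53 ± 0.42 over the lymphomas, from -0.34 to 1.21. The exception was lymphoma 9, with 0.80 for the cytosolic and 1.14 for the mitochondrial genes. Aars2 lay at 4.43 there, but 14 of the 16 mitochondrial genes were above the reference and 7 were at least 2-fold higher in that lymphoma. The cytosolic mean was highest in lymphomas 5, 3 and 15, at 1.92, 1.81 and 1.63, and lowest in 12 and 7, at 0.33 and 0.43. Lymphoma 12 had the narrowest array, with an SD over all genes of 0.59 against 0.94 for lymphoma 7 and 0.90 to 1.35 for all lymphomas other than 12. Lymphoma 14, whose macrophage markers were the highest at 2.76, had a cytosolic mean of 1.04 and the lowest mitochondrial mean, -0.10.

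**Figure D4:**
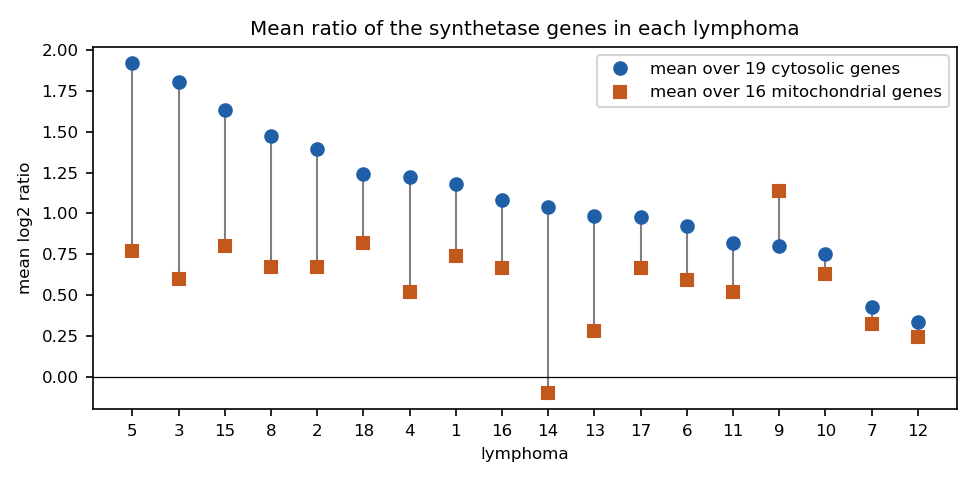
Mean log2 ratio over the 19 cytosolic genes (blue circles) and the 16 mitochondrial genes (orange squares) in each lymphoma, joined by a line and ordered by the cytosolic mean. The cytosolic mean runs from 0.33 to 1.92 and lies above the mitochondrial mean in every lymphoma except 9.

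How the members varied together is given as a description over the 18 lymphomas. The median Pearson r was 0.51 over 171 pairs of cytosolic genes, 0.19 over 120 pairs of mitochondrial genes and 0.18 over 304 mixed pairs. All pairs share the same arrays and reference, so array-wide shifts in scale enter each r. The closest pairs were Aars with Eprs at 0.91, Lars with Nars at 0.88, Cars with Yars at 0.87 and Kars with Mars1 at 0.85. Among mitochondrial genes the closest were Pars2 and Rars2 at 0.80. Hars, Wars and Qars followed the other cytosolic genes least, with median r of 0.13, 0.28 and 0.30, and Vars2 had a median r of -0.35 with them.

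Asns was used as a measure of the amino acid response in each lymphoma, since it is activated by Atf4 and is not a synthetase of tRNA. Its log2 ratio was 2.84 ± 1.54 and was above the reference in 17 of 18 lymphomas. It was highest in lymphomas 3, 15 and 5, at 5.17, 4.90 and 4.76, and lowest in 10 and 12, at -0.83 and 0.88. These 3 highest lymphomas are also the 3 with the highest cytosolic mean. Atf4 lay at 1.47, 1.78 and 1.70 in them, but at 0.45 in lymphoma 13, where Asns was 4.32. How far Asns follows the amino acid response in single lymphomas was not tested. Fitted over 18146 genes, the slope on Asns was called for 1 gene, Gars, at an adjusted p under 0.05, which is 0.00551% of genes. Its slope was 0.41 with an SE of 0.062 per log2 unit of Asns (limma adjusted p = 0.049).

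At an unadjusted p under 0.05, the slope was positive for 14 of 19 cytosolic genes and for 1 of 16 mitochondrial genes, against 3.04% of all genes. The slope of 1 mitochondrial gene, Vars2, was negative at that level, against 3.81% of all genes. The members are not independent of each other, as their correlations show, and the difference between the compartments was not tested. Besides Gars, the lowest p-values belonged to Nars, Cars and Lars, with slopes of 0.37, 0.33 and 0.26 (limma adjusted p = 0.16, 0.16 and 0.17). The call for Gars was lost in most alternatives, with an adjusted p of 0.40 after scaling the arrays and 0.999 without the 7 marker-poor lymphomas. The slope was 0.38 after scaling and 0.33 with an SE of 0.097 without the 7. It was kept without lymphoma 10, 13, 14 or 17, at 0.0061, 0.036, 0.020 and 0.043, and lost without each of the other 14.

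Across the 18 lymphomas, Gars and Asns had a Pearson r of 0.87 and a Spearman rho of 0.92, each with a permutation p of 1e-05, the smallest that 100000 permutations can give. Without lymphomas 10 and 3, the farthest from the median of Asns, r was 0.90. For Nars, r was 0.78 and rho 0.86 (permutation p = 0.00012 and 4e-05), with 0.79 without those 2. For Lars, r was 0.78 and rho 0.86 (permutation p = 0.00013 and 3e-05), with 0.74 without them. For Cars, r was 0.77 and rho 0.80 (permutation p = 0.00023 and 0.0002), with 0.79 without them. These 4 were the strongest of the 35 relations to Asns that were computed, and the adjusted values are those of the fit over all genes.

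Set beside the macrophage markers, Asns ran from 2.44 to 5.17 in the 7 marker-poor lymphomas and from -0.83 to 4.32 in the other 11. Within those 11, r with Asns was 0.77 for Gars, 0.75 for Nars, 0.77 for Lars and 0.68 for Cars. Within the 7 it was 0.93, 0.66, 0.68 and 0.74. The median r with Asns over the 19 cytosolic genes was 0.58 in all 18 lymphomas, 0.32 in the 11 and 0.64 in the 7. Without the 7, 5 of 19 cytosolic genes had a positive slope at an unadjusted p under 0.05, against 1.84% of all genes. With the macrophage mean as a further covariate there were 8, against 3.18%.

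**Figure D5:**
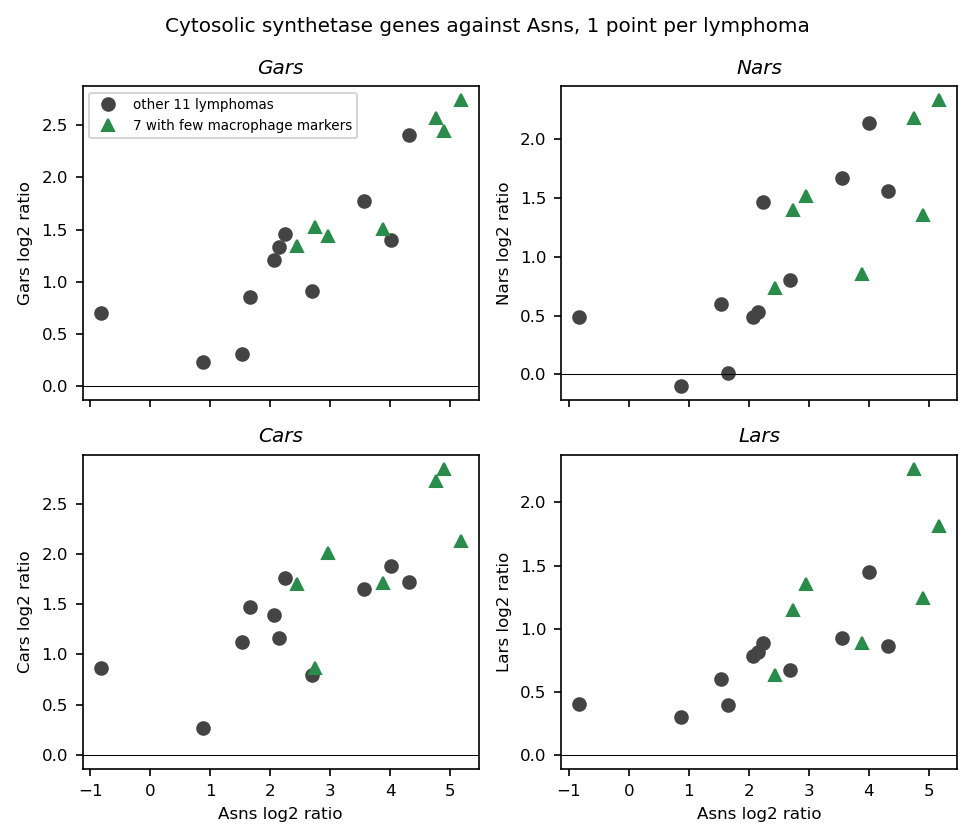
Log2 ratios of Gars, Nars, Cars and Lars (vertical axes) against that of Asns (horizontal axes), with 1 point per lymphoma. Green triangles are the 7 lymphomas with few macrophage markers and grey circles the other 11. Each of the 4 genes has its highest value in lymphoma 3, 5 or 15, the 3 lymphomas with the highest Asns, and r within the 11 grey points lies between 0.68 and 0.77.

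Of 16 listed genes of the wider Atf4 response, 10 were higher and 3 were lower, against 29.9% and 27.9% of all genes, with a median of 1.11. The members with the lowest adjusted p were Shmt2 at 2.27 ± 0.63 and Phgdh at 1.63 ± 0.50, enzymes of serine and glycine metabolism, Slc7a5, which carries large neutral amino acids into cells, at 2.02 ± 0.64, and Psat1 at 1.24 ± 0.59. Atf4 itself was higher at 0.90 ± 0.59. Slc7a11, Ddit4 and Vldlr, other genes of the list, were lower at -1.41 ± 1.10, -0.78 ± 0.79 and -1.18 ± 1.54. With Trib3, another Atf4 target, in place of Asns, 11 cytosolic genes and 1 mitochondrial gene had a positive slope at an unadjusted p under 0.05, against 4.08% of all genes, and Gars had an adjusted p of 0.30.

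Upstream, the kinase GCN2 (Eif2ak4) was higher at 0.40 ± 0.22 and its activator Gcn1 at 0.83 ± 0.41, while Impact, an inhibitor of GCN2 activation, was lower at -0.59 ± 0.76. The haem-regulated kinase Eif2ak1 was higher at 0.40 ± 0.30. Eif2ak3 and Eif2ak2 lay at -0.19 ± 0.65 and -0.15 ± 0.60 and did not pass. Of this list of 6 measured genes, 3 were higher and 1 was lower, against 29.9% and 27.9% of all genes.

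Myc is known in other systems to raise genes of protein synthesis. It was higher in the lymphomas at 1.55 ± 0.66, above the reference in 17 of 18. The slope on Myc was called for 0 of 35 members, and for 0 of all 18146 genes in either direction (limma). At an unadjusted p under 0.05 it was positive for 0 cytosolic and 2 mitochondrial genes, Mars2 and Lars2, against 2.95% of all genes, and 0 were negative, against 2.08%. Over the cytosolic genes, Spearman rho with Myc ran from -0.33 for Nars to 0.58 for Qars (unadjusted permutation p = 0.18 and 0.012). It was 0.50 for Farsb and 0.47 for Vars (unadjusted permutation p = 0.035 and 0.049). Without lymphomas 8 and 18, the farthest from the median of Myc, r was 0.54 for Farsa and Vars and -0.36 for Nars. Over all 18, r was -0.11 for Farsa and 0.08 for Vars. The Pearson r with Myc was 0.51 for Mars2 and 0.45 for Lars2, and -0.23 for Gars. Within the 11 lymphomas that were not marker-poor it was 0.62, 0.41 and -0.63, and within the 7 it was -0.16, 0.53 and -0.18. The lowest r within the 11 were -0.83 for Tars and -0.68 for Nars, against -0.40 for each over all 18. These were picked as the lowest of the 35 members. Spearman rho over all 18 was -0.12 for Tars (permutation p = 0.64). Lymphomas 8 and 13, both among the 11, had the lowest Myc, at -0.0047 and 0.47, and the highest Tars, at 2.48 and 1.79.

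Because Wars is induced by interferon, the members were also set against Psmb9, an interferon-induced proteasome subunit, which lay at -0.74 ± 0.61. The slope was called for 0 of 35 members by limma and for 0 at an unadjusted p under 0.05, against 0.011% of all genes called positive and, at the unadjusted level, 2.85% positive and 1.29% negative. The slope of Wars on Psmb9 was -0.01 with an SE of 0.23. Most cytosolic genes had values of opposite sign in the 2 sets of lymphomas. Within the other 11, r with Psmb9 was negative for 18 of 19 cytosolic genes, among them Eprs and Aars at -0.79, Cars at -0.78 and Gars at -0.72. Within the 7 marker-poor lymphomas it was positive for 17 of 19, with Eprs at 0.57, Aars at 0.65, Cars at 0.56 and Gars at 0.78. These are descriptions of few lymphomas, chosen after their values were seen, and the difference between the sets was not tested. Among the 11, lymphomas 12 and 7 had the highest Psmb9, at 0.61 and -0.20, and the lowest cytosolic means, at 0.33 and 0.43. Lymphoma 8 had the lowest Psmb9, at -1.89, and the highest cytosolic mean of the 11, at 1.48. With all lymphomas except 12 and 8, the 7 marker-poor ones included, r with Psmb9 was 0.32 for Eprs, 0.30 for Aars, 0.33 for Cars and 0.31 for Gars. The r within the 11 without lymphomas 12 and 8 was not computed.

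Against the mean of the macrophage markers, 4 members had a negative slope and 0 a positive one at an adjusted p under 0.05, against 2.29% and 5.66% of all genes (limma). They were Mars1 at -0.23, Rars2 at -0.20, Pars2 at -0.18 and Eprs at -0.17 per log2 unit. At an unadjusted p under 0.05, 13 cytosolic and 4 mitochondrial genes had a negative slope, 17 in all, against 10.4% of all genes. That count was 8 without lymphoma 5, 10 without lymphoma 3, 11 without lymphoma 15 and 8 after scaling the arrays. The cytosolic mean ran from 0.98 to 1.92 in the 7 marker-poor lymphomas and from 0.33 to 1.48 in the other 11, so the ranges overlapped. Without the 7, 0 members were called by limma, and 6 had a negative slope at an unadjusted p under 0.05, against 6.06% of all genes. The cytosolic mean was above the reference in all 18 lymphomas.

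The last comparison set the synthetases beside the rest of the translation machinery. Of 6 cytosolic elongation factor genes, 4 were higher and 1 was lower, against 29.9% and 27.9% of all genes. Eef1d lay at 0.74 ± 0.28, Eef2 at 0.48 ± 0.68, Eef1g at 0.39 ± 0.37 and Eef1b2 at 0.27 ± 0.43, while Eef1a1, which delivers charged tRNA to the ribosome, lay at 0.04 ± 0.40 and did not pass. The list also holds Eef1e1, described above as the scaffold gene that was lower. The median of 0.33 compares with 1.10 for the cytosolic synthetases.

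Of 9 mitochondrial translation factors, 5 were higher and 1 was lower, against the same 29.9% and 27.9% of all genes, with a median of 0.33 against 0.58 for the mitochondrial synthetases. The elongation factor genes Gfm1, Tsfm and Tufm lay at 0.94 ± 0.37, 0.55 ± 0.44 and 0.36 ± 0.24, the release factor gene Mtrf1 at 0.44 ± 0.43 and the ribosome recycling factor gene Mrrf at 0.33 ± 0.47. The release factor gene Mtrf1l was lower at -0.47 ± 0.49. Mtif2, Mtif3 and Gfm2 did not pass, at 0.30 ± 0.64, 0.11 ± 0.27 and -0.14 ± 0.44. The initiator tRNA is formylated in mitochondria by Mtfmt, which was lower at -0.59 ± 0.32.

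Among 15 accessory genes of tRNA charging, a list that also holds Lars2, 9 were higher and 2 were lower, against 29.9% and 27.9% of all genes. Besides Lars2 and the GatCAB genes Gatb and Qrsl1, the lowest adjusted p belonged to Dtd2, a deacylase that removes mischarged residues, at 1.02 ± 0.57. Of 18 genes of RNA polymerase III and its factors, which transcribe tRNA genes, 7 were higher and 3 were lower, near the shares of all genes, and their median of 0.05 was that of all genes. Polr3b, Brf2, Gtf3c3 and Polr3d had the lowest adjusted p, at 0.64 ± 0.35, 0.66 ± 0.38, 0.57 ± 0.36 and 0.65 ± 0.46.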

How the data were processed

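Lymphoma RNA (18 tumours) and shared thymus reference RNA were co-hybridised to 2-colour Agilent arrays with dye swaps, per the labels. The authors deposited 1 log10 ratio per probe and lymphoma. Base 10 was inferred, since the scanner software of the array maker writes log10, and every fold rests on it. Direction and centring are unstated; array medians lay between -0.0114 and 0.0370 in deposited units. Details of feature extraction, normalization and dye-swap averaging were not given in the sources used here. Ratios were multiplied by 3.32 to give log2 ratios, with no further normalization.

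Of 41175 probes, 31700 have 1 gene symbol in the platform annotation, 47 have several and 9428 have none here. Symbols were checked by Entrez ID against RefSeq (GRCm38.p6), with 31564 probes matched. Probes needed values on at least 14 arrays, and a gene is the mean of its probes. The 35 synthetase genes rest on 68 probes, 19 genes having more than 1.

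The mean was tested against 0, and the slope on Asns, Myc and others, over all genes with limma 3.58.1 in R 4.3.3, Benjamini-Hochberg threshold 0.05. The test takes the reference as a single control and leaves out variation between thymuses. Psmb9 and the mean of 7 macrophage markers were taken as covariates after seeing the data, and the covariates planned in their place are not reported here. Trp53 was not analysed here. The scripts' tests were checked on simulated data. Alternatives were quantile normalization, scaling of arrays, other probe rules, array weights and leaving out lymphomas.

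Members, gene lists and tests were chosen with earlier results of these data known. Named genes are all members, with values by lymphoma for the 6 largest and 6 smallest means, the 3 largest SD, the extreme pairs and Wars, Gars, Kars and Eprs, and for the lists of translation, eIF2 kinases and the Atf4 response the 4 lowest adjusted p or all of lists of 12 or fewer. Cell type markers are given by list, with examples. Further genes were named after their values were seen, to give what a sentence counts. Errors are SD over lymphomas. The number of arrays limits the precision.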

Additional observations from a re-analysis of the deposited data

How the results depend on the processing

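Of the 35 synthetase genes, 29 kept the same call against the reference in all 27 alternatives. Among them were 17 of the 19 higher cytosolic genes and 9 of the 11 higher mitochondrial ones, which kept their sign too. The exceptions were Qars, Hars, Fars2, Nars2, Vars2 and Wars2. A change of sign was not counted for genes that passed in neither fit. Hars2 was such a gene and ran from -0.04 to 0.05 with 1 lymphoma left out. With 1 probe per gene Qars was lower at -0.44 (adjusted p = 0.011), so the cytosolic genes counted 1 lower, Wars2 joined Vars2 to give 2 mitochondrial genes lower, and Nars2 lost its call at 0.14. Without the 7 lymphomas poor in macrophage markers 0 mitochondrial genes were lower. Leaving out 1 lymphoma at a time gave 18 to 19 cytosolic and 11 mitochondrial genes higher, 0 cytosolic and 1 mitochondrial lower, and a cytosolic minus mitochondrial difference of 0.49 to 0.58. The shares of all genes called against the reference were not computed for the alternatives. The number of members called positive against Asns was 0 under quantile normalization, scaling, 1 probe per gene, without the 7 lymphomas, without lymphomas 7, 12 and 14, with the macrophage covariate and with Trib3, and 0 to 1 with 1 lymphoma left out. The cytosolic count at an unadjusted p under 0.05, 14 as reported, was 9 under quantile normalization, 5 without the 7 lymphomas, 8 with the macrophage covariate and 11 to 14 with 1 lymphoma left out. The members called negative against the macrophage markers, 4 as reported, were 2 under quantile normalization or scaling, 0 without the 7 lymphomas, 1 without lymphomas 7, 12 and 14, and 3 to 5 with 1 lymphoma left out. Fewer lymphomas entered those fits without groups of lymphomas, and the cause of the other changes was not tested. For Myc and Psmb9 0 members were called in any alternative run. In the main fits over all 18146 genes, 0 were called on Myc and 2 on Psmb9. No paired analysis was possible because the lymphomas form 1 group. Signal over background was not used here, so faint probes are not marked as such.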

Other observations

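The genes given here were chosen after their values were seen, and the correlations are descriptions over 18 lymphomas on shared arrays. Over 17001 genes with a value in every lymphoma, the patterns most like that of Lars2 were those of Cox17, a copper chaperone for cytochrome c oxidase, with r = 0.95, and of Pigt, a subunit of the GPI transamidase, with r = 0.94. In lymphomas 17 and 13, where Lars2 lay at -0.58 and -0.34, Cox17 lay at -0.67 and 0.04 and Pigt at -0.18 and 0.52. Lars2, Cox17 and Pigt lie on chromosomes 9, 16 and 2 of GRCm38.p6. The measured neighbours of Lars2 on chromosome 9 had r between -0.23 and 0.14. Lars2 rests on 1 probe, and whether the probes of Lars2, Cox17 and Pigt also detect other RNA was not checked.

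For Aars2, the most alike patterns were those of the histone genes H2al1m, H2al1n and H2al2a, members of a family of testis histone variants, with r from 0.89 to 0.90. In lymphoma 9, with Aars2 at 4.43, H2al1m lay at 6.04, and in lymphoma 13, with Aars2 at 2.24, it lay at 3.60. H2al1m and H2al1n lie on chromosome X and H2al2a on chromosome 2. Whether the probes of these 3 histone genes tell them apart was not checked. Of the measured neighbours of Aars2 on chromosome 17, Tcte1 and Nfkbie had r of 0.72 and 0.83 and lay at 1.58 and 1.33 in lymphoma 9. On the other side, Spats1 and Cdc5l had r of -0.08 and 0.40 and lay at 0.60 and 0.15 there.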
